A study of Mus musculus with 8 samples.

Results

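The STAT family was followed through its probe sets on Affymetrix arrays of mouse embryonic fibroblasts. The members were Stat2, Stat3, Stat4, Stat5a, Stat5b and Stat6, and every probe set annotated to one of them alone was taken. This gave 7 probe sets of 5 genes among the 12422 probe sets of 8251 named genes, with a pair of probe sets each for Stat3 and Stat5a. Stat2 had no such probe set in the annotation used here. The 4 groups held 2 arrays each, and the 8 arrays limit the precision of every value. They were STAT3-/- fibroblasts given oncostatin M (OSM) at 20 ng/ml for 30 minutes, untreated STAT3-/- fibroblasts, STAT3+/+ fibroblasts given the same OSM treatment, and untreated STAT3+/+ fibroblasts. Cells of both genotypes had immortalised spontaneously and grew in medium with 10% serum. Each title carries a number, 02 or 03, and the labels do not say whether it names a line, a culture or a run. With so few lines at most, genotype and other differences between the lines cannot be told apart. The sample titles decide which arrays count as treated, since the accompanying text speaks of OSM for every array. In bulk RNA of this kind, fewer expressing cells and less RNA per cell cannot be told apart.

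STAT proteins wait in the cytoplasm until a cytokine receptor and its Janus kinase phosphorylate them on a tyrosine, after which they pair, enter the nucleus and bind DNA. Stat3 is the main STAT of the gp130 receptors, which bind OSM, interleukin-6 and leukaemia inhibitory factor, and the Stat3 gene is itself a known target of Stat3. Stat2 joins Irf9 in the complex that answers type I interferon. Stat4 answers interleukin-12 in lymphocytes, the closely related Stat5a and Stat5b answer prolactin, growth hormone and interleukin-2, and Stat6 answers interleukin-4 and interleukin-13.

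The stretches before the promoter-window starts of Stat3 and Stat6 are shown. They were picked because Stat3 read higher with OSM on both of its probe sets, whereas Stat6, also above background, stayed within a narrow range. Stat3, Stat5a and Stat5b lie side by side on chromosome 11, Stat2 and Stat6 on chromosome 10, and Stat4 on chromosome 1. The sequences are the 250 bases before the start from RefSeq, build GRCm38.p6, at chr11:100939541-100939790 on the minus strand for Stat3 and chr10:127642736-127642985 on the plus strand for Stat6. The outer start of each gene, at 100939594 for Stat3 and 127642955 for Stat6, lies within the printed stretch, so its last bases belong to the annotated gene. Capitals mark TTCC on either strand, the half-site of STAT binding motifs.
Stat3: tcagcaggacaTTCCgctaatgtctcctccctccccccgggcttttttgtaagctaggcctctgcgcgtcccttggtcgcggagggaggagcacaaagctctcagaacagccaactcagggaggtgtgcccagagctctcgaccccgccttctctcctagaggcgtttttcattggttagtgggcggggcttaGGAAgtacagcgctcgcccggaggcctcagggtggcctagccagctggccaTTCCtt
Stat6: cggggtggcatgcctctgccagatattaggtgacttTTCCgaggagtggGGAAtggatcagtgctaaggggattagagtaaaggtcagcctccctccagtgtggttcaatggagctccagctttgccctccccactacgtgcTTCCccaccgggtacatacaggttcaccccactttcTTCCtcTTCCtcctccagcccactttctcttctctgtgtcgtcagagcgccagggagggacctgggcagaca
The half-site was chosen after the search for whole motifs, and 96.0% of all 32851 windows hold it, so its presence sets neither promoter apart. The windows searched also included 50 bases after each start. All motifs were searched on both strands. Neither the Stat3 nor the Stat6 window held the palindrome TTCNNNGAA that STAT dimers bind, present in 8.3% of all windows, or the Stat6-type palindrome with 1 more base between TTC and GAA, present in 6.95%. Among the 9 windows of the 6 members, TTCNNNGAA did not occur and the Stat6-type palindrome occurred once, in the Stat2 window as TTCCCTAGAA. The core of the interferon-stimulated response element, GAAA repeated after any 2 bases and found in 3.44% of all windows, occurred in the Stat2 window as TTTCAGTTTC and in one of the Stat4 windows as GAAAGTGAAA. The Stat2 matches do not overlap each other, but each shares bases with a half-site. A longer form of the interferon element that starts with GGAAA and ends with GAAACT, present in 0.116% of all windows, was in none of the 9. These matches describe letters and not binding.

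Values are the deposited log2 expression values. Array medians lay between 5.266 and 5.658, and 51.1% to 52.9% of probe sets reached a log2 value of 5, below which a value was read as near background. Arrays that shared a number in their title (02 or 03) resembled each other more than the arrays of a group did, with correlations across probe sets of 0.9325 to 0.977 within a number and between groups, against 0.8694 to 0.9258 within a group. In limma, 41.1% of the tested probe sets differed between the numbers, none of them a STAT probe set. The array's control probe sets differed with the number too. The 3′ control for 18S ribosomal RNA read 14.75 to 15.13 in number 03 and 11.02 to 11.67 in number 02, and that for beta-actin 16.24 to 16.76 in number 03 and 14.63 to 15.54 in number 02. Their part in the number difference was not tested. Differences within each number are therefore given beside the pooled ones. On their brightest probe sets the fibroblast markers Col1a1, Col1a2, Col3a1, Fn1, Lox, Pdgfrb, S100a4 and Sparc lay above 5 on all arrays. A dimmer Col1a2 probe set read 3.33 to 5.07, and Thy1 and Vim read at most 2.42 and 3.70. Of 11 leukocyte markers on the arrays, 9 stayed under 5 everywhere, Ptprc at 3.24 to 4.34 among them, and the mean of the list lay between 3.60 and 4.06 on the 8 arrays. The others were Cd14, at 9.34 to 11.62, and Lcp1, an actin-bundling protein. On its brighter probe set Lcp1 read 4.27 to 5.16 on the STAT3-/- arrays and 5.64 to 7.19 on the STAT3+/+ arrays. Such a gap, in the same direction as for Stat3, was found for 2.12% of all probe sets. Lcp1 was called in neither comparison of genotypes, and its dimmer probe set read 1.45 to 1.95. The part of Lcp1 in the genotype differences was not tested. The corresponding means were 3.00 to 3.48 for 6 epithelial, 4.09 to 5.19 for 5 endothelial and 4.75 to 5.08 for 5 muscle markers. These means hide single markers above 5 on all arrays. They were the muscle genes Actc1, at 10.48 to 11.12 on its brighter probe set, and Myog, at 7.19 to 9.66, and the endothelial Pecam1, at 5.47 to 5.97. The highest array read 8.12 for Kdr, 5.45 for Emcn, 5.66 for Krt8 and 5.21 for Krt18.

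Of the 7 STAT probe sets, 4 passed the filter of a log2 value of at least 5 on at least 2 arrays and were tested, namely both of Stat3, 1 of Stat5a and that of Stat6. Stat4, Stat5b and the other Stat5a probe set did not reach 5 on any array. Stat3 on 99100_at reached 5 on 5 arrays, the STAT3+/+ arrays and OSM-treated STAT3-/- of number 03. It thus passed the filter through the STAT3+/+ arrays. Its spread and genotype differences, where set beside the tested probe sets, follow in part from the filter. The spread of the tested members over the 8 arrays fell at opposite ends of the array-wide range. The standard deviation was 1.59 and 4.27 for the Stat3 probe sets, at the 95.6th and 99.9th percentile of the 6756 tested probe sets, and 0.32 for Stat5a and 0.27 for Stat6, at the 24.5th and 18.1th percentile, around a median of 0.49.

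**Figure D1:**
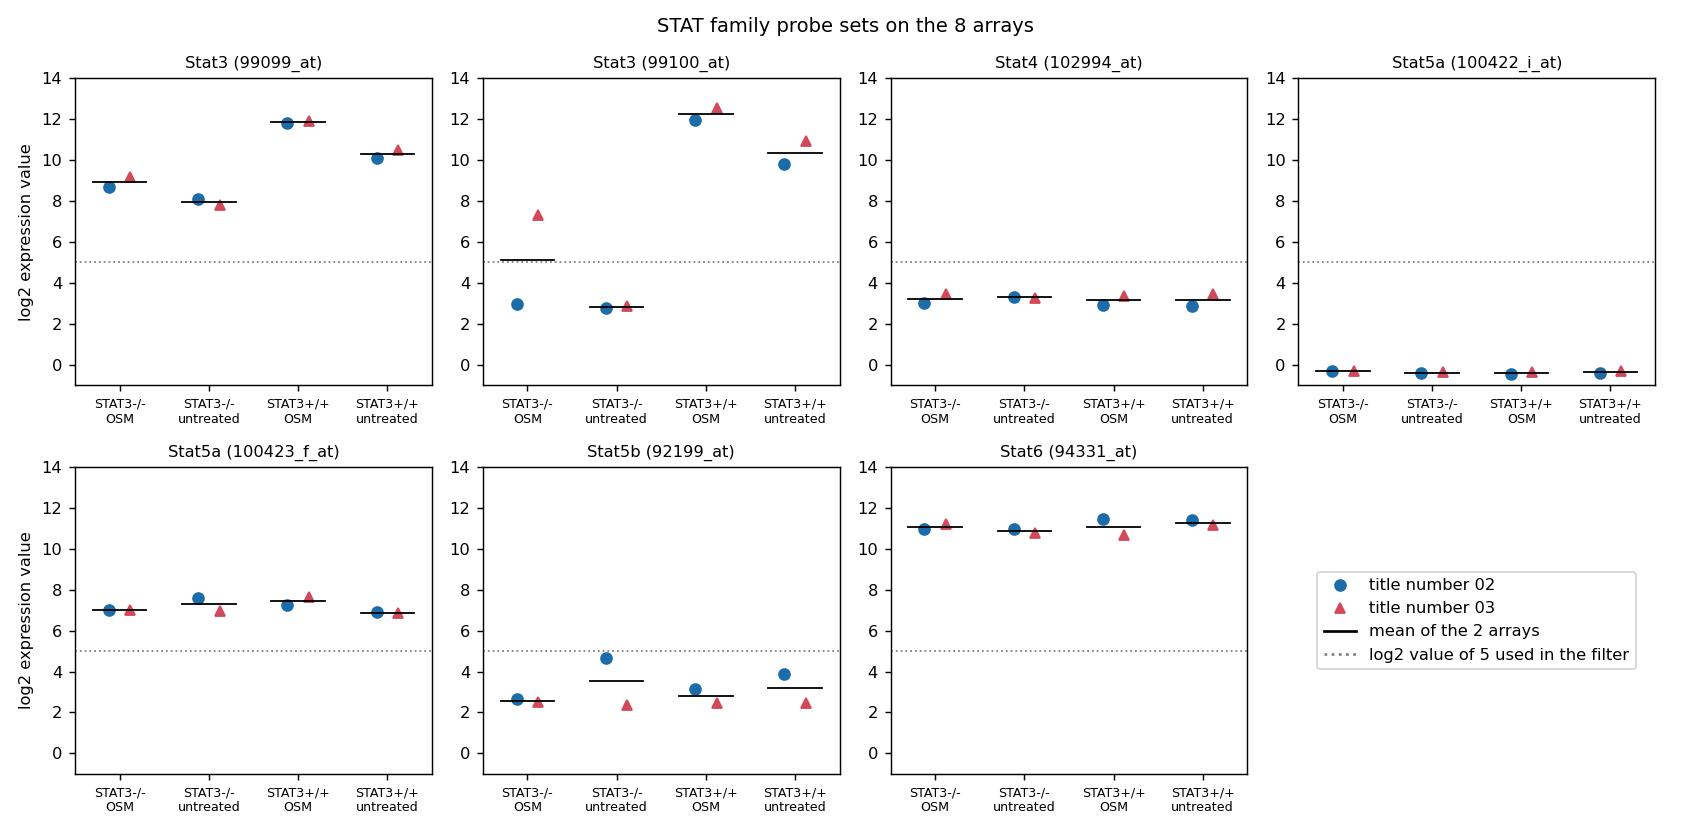
Log2 expression value (y axis) of the 7 STAT family probe sets in the 4 groups (x axis), with circles for title number 02, triangles for title number 03, a line at the mean of the 2 arrays and a dotted line at the log2 value of 5. Stat3 differs between genotypes on both probe sets, Stat6 keeps between 10.70 and 11.47, and Stat4, Stat5b and 1 Stat5a probe set stay below 5.

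Stat3 was lower in STAT3-/- cells and higher with OSM, in each genotype, on both of its probe sets. Probe set 99099_at read 8.70 and 9.17 in OSM-treated STAT3-/- cells (numbers 02 and 03), 8.08 and 7.81 in untreated STAT3-/- cells, 11.82 and 11.94 in OSM-treated STAT3+/+ cells and 10.11 and 10.50 in untreated STAT3+/+ cells. Its 4 groups did not overlap, in the order OSM-treated STAT3+/+, untreated STAT3+/+, OSM-treated STAT3-/- and untreated STAT3-/-. Probe set 99100_at read 2.94 and 7.30 in OSM-treated STAT3-/- cells, 2.76 and 2.86 in untreated STAT3-/- cells, 11.99 and 12.57 in OSM-treated STAT3+/+ cells and 9.80 and 10.95 in untreated STAT3+/+ cells. The groups kept the same order without overlap, but OSM-treated STAT3-/- of number 02 was only 0.18 above the untreated STAT3-/- array of its number, and number 03 lay apart from the other 3 STAT3-/- arrays. The probe sets disagreed on how much signal the STAT3-/- cells kept, since 99099_at stayed above 7 on its 4 arrays and 99100_at was under 3 on 3 of them. Across the 8 arrays, which share groups and numbers, their Pearson correlation was 0.958, or 0.966 after the mean of each number was removed. The sources used here do not say which part of Stat3 the STAT3-/- cells lack or which part each probe set reads.

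Among all 12422 probe sets, 99100_at had the widest gap between the lowest STAT3+/+ and the highest STAT3-/- array, at 2.50 log2 units, and 99099_at ranked at place 7 with 0.94. A gap above 0 in this direction was found for 2.12% of probe sets. This ranking was made after the values of 99100_at had been seen.

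In untreated cells the question was how the family differed between the genotypes. Stat3 on 99099_at averaged 7.94 ± 0.19 in STAT3-/- and 10.31 ± 0.28 in STAT3+/+ cells (SD, n = 2 each). The log2 difference was -2.36 ± 0.33 (SE), or 0.195 of the STAT3+/+ level. Within numbers 02 and 03 the difference was -2.03 and -2.69. On 99100_at the averages were 2.81 ± 0.07 in STAT3-/- and 10.37 ± 0.82 in STAT3+/+ cells (SD, n = 2 each). The log2 difference was -7.56 ± 1.33 (SE), with -7.04 and -8.09 within the numbers. As the STAT3-/- values lie below 5, that size is not exact, and with values under 5 set to 5 it was -5.37. Neither passed limma over all probe sets (adjusted p = 0.739 for 99099_at and 1 for 99100_at), where 0% of probe sets were called, also with the title number as a block that takes out its mean difference. Both were at least 1 log2 unit lower within both numbers, as were 1.04% of all tested probe sets. 99099_at had an unadjusted p under 0.05, a level that 2.24% of probe sets reached, and was 3rd of 6756 by p. 99100_at passed the filter through the STAT3+/+ arrays. Its place in the share above thus follows in part from the filter, and its rank by p is not given.

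Stat6 and Stat5a differed by 0.40 log2 units between the untreated genotypes, in opposite directions. Stat6 averaged 10.88 ± 0.12 in STAT3-/- and 11.28 ± 0.17 in STAT3+/+ cells (SD, n = 2 each). The log2 difference was -0.40 (limma 95% interval -1.24 to 0.44), with -0.44 and -0.36 within numbers 02 and 03. Stat5a averaged 7.28 ± 0.47 in STAT3-/- and 6.88 ± 0.06 in STAT3+/+ cells (SD, n = 2 each). The log2 difference was 0.40 (95% interval -0.51 to 1.31), with 0.69 and 0.11 within the numbers. The arrays of the genotypes did not overlap for any of the 4 tested STAT probe sets, as for 19.2% of all tested probe sets. Both genes had limma adjusted p = 1, and the intervals leave room for a difference of over 1 log2 unit in one direction.

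With OSM in both genotypes, Stat3 on 99099_at averaged 8.94 ± 0.33 in STAT3-/- and 11.88 ± 0.08 in STAT3+/+ cells (SD, n = 2 each). The log2 difference was -2.94 ± 0.33 (SE), or 0.13 of the STAT3+/+ level, with -3.12 and -2.77 within numbers 02 and 03. It did not pass limma (adjusted p = 0.159, 2nd of 6756 by p), where 0.0148% of probe sets were called, the only one being Cx3cl1, a membrane-bound chemokine outside the family. With the title number as replicate block it passed (adjusted p = 0.0476), among 0.104% of probe sets called. With the block and any 1 array left out it did not pass (adjusted p = 0.0867 to 0.333). On 99100_at the difference was -7.16 ± 1.33 (SE; adjusted p = 0.564), with -9.04 and -5.27 within the numbers. The STAT3-/- value of number 02 lies below 5, so these sizes are not exact, and with values under 5 set to 5 the difference was -6.13. Both probe sets were at least 1 log2 unit lower within both numbers, as were 1.73% of all tested probe sets. For 99100_at this follows in part from the filter, which it passed through the STAT3+/+ arrays. 99099_at had an unadjusted p under 0.05, as did 3.6%. Without OSM-treated STAT3-/- of number 03 the 99100_at difference, then measured from that value below 5, was -9.34 (limma adjusted p = 0.161), and -9.03 with the block as well (adjusted p = 0.0369).

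Stat6 averaged 11.10 ± 0.15 in STAT3-/- and 11.09 ± 0.55 in STAT3+/+ cells with OSM (SD, n = 2 each). Its log2 difference was 0.01 (95% interval -0.83 to 0.85), with -0.48 and 0.50 within numbers 02 and 03. Stat5a averaged 7.02 ± 0 in STAT3-/- and 7.44 ± 0.29 in STAT3+/+ cells (SD, n = 2 each). The log2 difference was -0.42 (95% interval -1.33 to 0.48), with -0.22 and -0.63 within the numbers. The arrays of the genotypes did not overlap, with STAT3-/- lower, for both Stat3 probe sets and Stat5a, as for 13.8% of all tested probe sets. Both genes had limma adjusted p = 1.

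The response to OSM was asked of each genotype in turn. In STAT3-/- cells Stat3 on 99099_at was 0.99 ± 0.33 (SE) log2 units higher with OSM than without, or 1.99-fold, with 0.62 and 1.36 within numbers 02 and 03. It did not pass limma (adjusted p = 1, unadjusted p = 0.0226), where 0% of probe sets were called (0.0296% with the block) and 2.04% had an unadjusted p under 0.05. On 99100_at the log2 difference of 2.31 ± 1.33 (SE; adjusted p = 1) was made by 0.18 in number 02 and 4.44 in number 03, and it was 0.13 without OSM-treated STAT3-/- of number 03. Of these 4 STAT3-/- values 3 lie below 5, and with values under 5 set to 5 the difference was 1.15. Stat6 differed by 0.22 (95% interval -0.62 to 1.06) and Stat5a by -0.26 (95% interval -1.17 to 0.65). Both Stat3 probe sets and Stat6 were higher with OSM without overlap, as were 14.4% of all tested probe sets.

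In STAT3+/+ cells Stat3 on 99099_at was 1.57 ± 0.33 (SE) log2 units higher with OSM than without, or 2.97-fold, with 1.71 and 1.44 within numbers 02 and 03. On 99100_at it was 1.91 ± 1.33 (SE) higher, with 2.19 and 1.62 within the numbers. Both probe sets thus showed more than 1 log2 unit in each number, as did 2.01% of all tested probe sets in this direction. Neither passed limma (adjusted p = 1 each), where 0% of probe sets were called, or 0.0148% with the block. The unadjusted p was 0.00284 for 99099_at, 13th of 6756, and 0.201 for 99100_at, and 1.87% of probe sets had an unadjusted p under 0.05. Stat6 differed by -0.19 (95% interval -1.03 to 0.65) and Stat5a by 0.56 (95% interval -0.35 to 1.47). Stat5a was higher with OSM on both numbers, by 0.31 and 0.81, and like Stat3 its groups did not overlap, as for 8.29% of probe sets in this direction. The comparisons share arrays, so their values stand side by side and not as separate evidence.

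Whether OSM acted differently on the family in the genotypes was asked with the interaction, the OSM difference in STAT3-/- minus that in STAT3+/+ cells. For Stat3 it was -0.58 ± 0.46 (SE) on 99099_at, with -1.09 and -0.08 within numbers 02 and 03, and 0.40 ± 1.88 (SE) on 99100_at, with -2.01 and 2.81. The probe sets differed in sign, and that of 99100_at turned to -1.78 without OSM-treated STAT3-/- of number 03 and to -0.76 with values under 5 set to 5. For Stat5a it was -0.82 ± 0.53 (SE), with -0.91 and -0.74, and for Stat6 0.41 ± 0.49 (SE), with -0.05 and 0.87. In limma 0% of probe sets were called and 0.429% had an unadjusted p under 0.05, none of them a STAT probe set (adjusted p = 1 each).

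**Figure D2:**
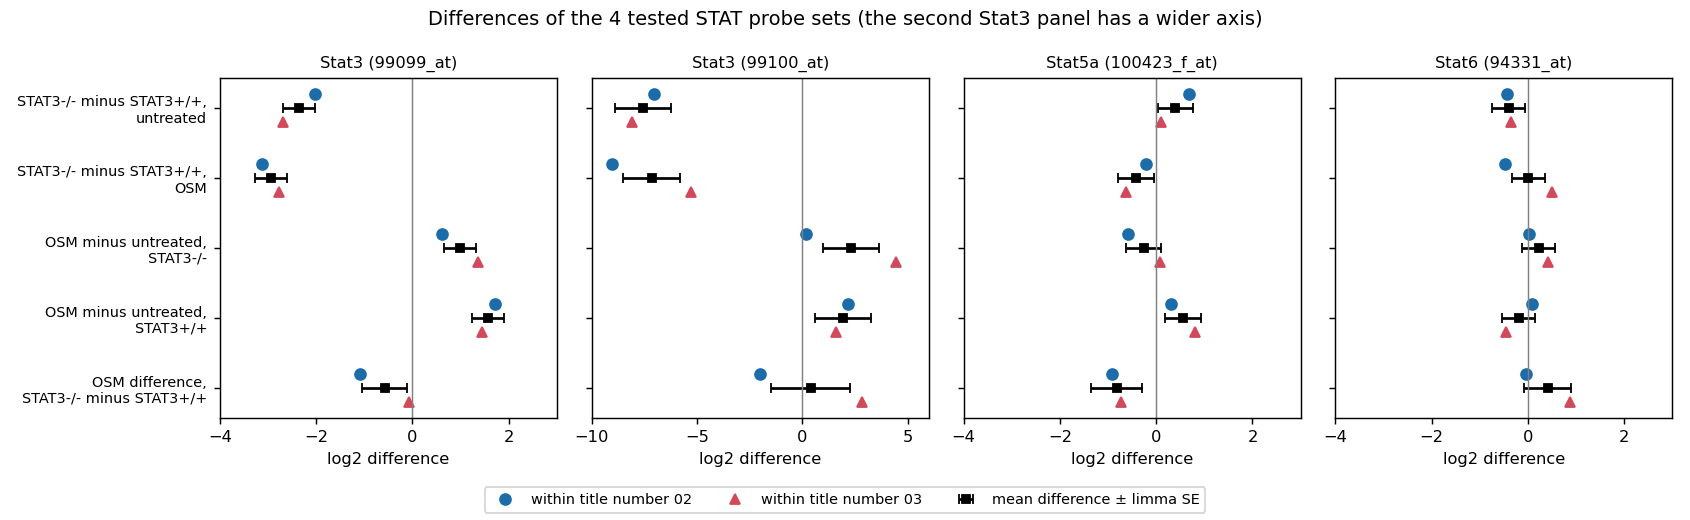
Log2 differences (x axis) of the 4 tested STAT probe sets in the 5 comparisons (y axis), as the mean difference with its limma SE (squares and bars) and within title numbers 02 (circles) and 03 (triangles), the 99100_at panel having a wider axis. The Stat3 differences between genotypes lie left of 0 in both numbers and its OSM differences right of 0, whereas the points of Stat6 and Stat5a stay within 1 log2 unit of 0.

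The remaining members gave values near background. Stat5b read 2.64 and 2.49 in OSM-treated STAT3-/- cells, 4.66 and 2.37 in untreated STAT3-/- cells, 3.15 and 2.45 in OSM-treated STAT3+/+ cells and 3.86 and 2.48 in untreated STAT3+/+ cells. Number 03 minus number 02 lay between -2.28 and -0.15 in the 4 groups. Stat4, a lymphocyte STAT, lay between 2.85 and 3.46 on the 8 arrays and its groups overlapped in every pair compared. The Stat5a probe set 100422_i_at lay between -0.46 and -0.30, and the other, 100423_f_at, between 6.84 and 7.65. In the manufacturer's naming the letter f marks probe sets whose probes can match several related sequences, so the Stat5a signal may hold that of relatives, which was not tested.

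None of the 4 tested STAT probe sets was called between the numbers. The log2 difference of number 03 minus number 02 was 0.18 ± 0.18 on 99099_at, 1.55 ± 0.72 on 99100_at, -0.09 ± 0.22 for Stat5a and -0.24 ± 0.19 for Stat6 (SE). Their limma adjusted p-values were 0.467, 0.132, 0.772 and 0.348.

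The genes flanking Stat3 on chromosome 11 were looked at because they share its locus, a choice made after the Stat3 values were seen. Of the 10 protein-coding genes on each side, 14 were on the array and 9 tested, Stat5a among them, and between untreated STAT3-/- and STAT3+/+ cells their log2 differences ran from -0.08 to 0.94. Cavin1, the gene next to Stat3 on the other side from Stat5a and a coat protein of caveolae, differed by -0.02 ± 0.37 (SE), and the largest was that of Naglu, a lysosomal enzyme, at 0.94 ± 0.34 (SE; limma adjusted p = 1). With OSM the differences between the genotypes ran from -0.61 to 0.54. None of the 9 differed by 1 log2 unit in one direction within both numbers, in any of the comparisons of genotypes or of OSM. Such differences were rare over all tested probe sets too. Between the untreated genotypes 1.04% were lower, and between the OSM-treated ones 1.73%. With OSM 2.01% were higher in STAT3+/+ and 2.19% in STAT3-/- cells. With such shares 9 genes are too few to set the locus apart.

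Genes with the most similar pattern were found by Pearson correlation over the 8 arrays after the mean of each number was removed, among 5194 other genes. For Stat3 they were Nek6, a mitotic kinase (r = 0.984), Cdk9, the kinase that releases paused RNA polymerase (r = 0.978), and Ptgis, prostacyclin synthase (r = 0.971). For Stat5a they were Hdac6 (r = 0.955), Nav1 (r = 0.911) and Nxn (r = 0.904), and for Stat6 Homer3 (r = 0.955), Pim1 (r = 0.935) and Ptgr1 (r = 0.930). With 8 arrays such values describe the ranking only.

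The receptors that activate STAT proteins were described from a list of 24 genes, of which 20 were on the array and 15 tested. None was called in any comparison of genotypes or of OSM, with or without the block. Osmr, the receptor subunit specific to OSM, read 10.54 and 12.95 in OSM-treated STAT3-/- cells, 6.84 and 9.87 in untreated STAT3-/- cells, 12.81 and 14.22 in OSM-treated STAT3+/+ cells and 9.91 and 12.98 in untreated STAT3+/+ cells. OSM-treated minus untreated STAT3-/- cells gave 3.70 and 3.09 within numbers 02 and 03 (limma adjusted p = 1). Osmr was also higher with OSM in STAT3+/+ cells in both numbers. Within each number Osmr was lower in STAT3-/- than in STAT3+/+ cells in both states, untreated by -3.07 and -3.11 log2 units. Across the numbers the OSM-treated genotypes overlapped. Osmr was also 2.48 log2 units higher in number 03 than in number 02 (limma adjusted p = 0.00511). Il4ra, the interleukin-4 receptor chain that feeds Stat6, read 8.86 and 12.34 in OSM-treated STAT3-/- cells against 13.92 and 15.34 in OSM-treated STAT3+/+ cells. That difference was -5.06 and -3.00 within the numbers (adjusted p = 1). The growth hormone receptor Ghr, which activates Stat5, read 9.55 and 11.15 in untreated STAT3-/- and 8.21 and 8.62 in untreated STAT3+/+ cells. These did not overlap, as for 19.2% of all tested probe sets in either direction. Il13ra1, which pairs with Il4ra, read 11.87 and 13.02 with OSM and 9.38 and 11.06 without in STAT3+/+ cells, and 10.84 and 11.35 with OSM and 9.56 and 8.91 without in STAT3-/- cells. Pdgfrb, a growth factor receptor of fibroblasts, read 9.35 and 8.60 with OSM and 10.92 and 10.60 without in STAT3+/+ cells. Between the numbers 6 of 15 members were called higher and 1 lower in number 03, beside 41.1% of all tested probe sets called.

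Of 10 kinases and partners of STAT proteins, 9 were on the array and 5 tested, and none was called in the comparisons of genotypes or of OSM. Jak2, the kinase bound to gp130 and the growth hormone receptor, read 9.75 and 10.71 in OSM-treated STAT3-/- cells, 8.15 and 9.88 in untreated STAT3-/- cells, 12.18 and 12.71 in OSM-treated STAT3+/+ cells and 10.78 and 11.02 in untreated STAT3+/+ cells. The genotypes did not overlap in either state, with log2 differences of -1.89 ± 0.64 untreated and -2.21 ± 0.64 with OSM (SE; limma adjusted p = 1 each). Of all tested probe sets, 19.2% did not overlap in either direction untreated, and 13.8% were lower without overlap with OSM. The co-activator Crebbp read 7.56 and 9.13 in untreated STAT3-/- and 9.64 and 9.85 in untreated STAT3+/+ cells. Irf9, the partner of Stat2, read 4.97 and 11.17 in untreated STAT3-/- cells, so that these arrays lay further apart than the untreated means of 8.07 in STAT3-/- and 8.69 in STAT3+/+ cells.

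Of 17 inhibitors and phosphatases, 13 were on the array and 11 tested, with none called in the comparisons of genotypes or of OSM. Socs1, an inhibitor of Janus kinases, read 8.31 and 11.40 in OSM-treated STAT3-/- cells, 1.14 and 4.10 in untreated STAT3-/- cells, 2.40 and 2.58 in OSM-treated STAT3+/+ cells and 1.13 and 1.49 in untreated STAT3+/+ cells. Only the OSM-treated STAT3-/- arrays exceeded 5. Socs1 passed the filter through these arrays alone, so its limma result, though counted among the 11 tested, is not given. Socs3, the gp130 inhibitor, read 9.12 and 11.98 in OSM-treated STAT3-/- cells, 8.31 and 5.38 in untreated STAT3-/- cells, 13.80 on both OSM-treated STAT3+/+ arrays and 9.10 and 8.72 in untreated STAT3+/+ cells. Its OSM difference was 0.81 and 6.61 within the numbers in STAT3-/- cells, and 4.70 and 5.08 in STAT3+/+ cells.

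**Figure D3:**
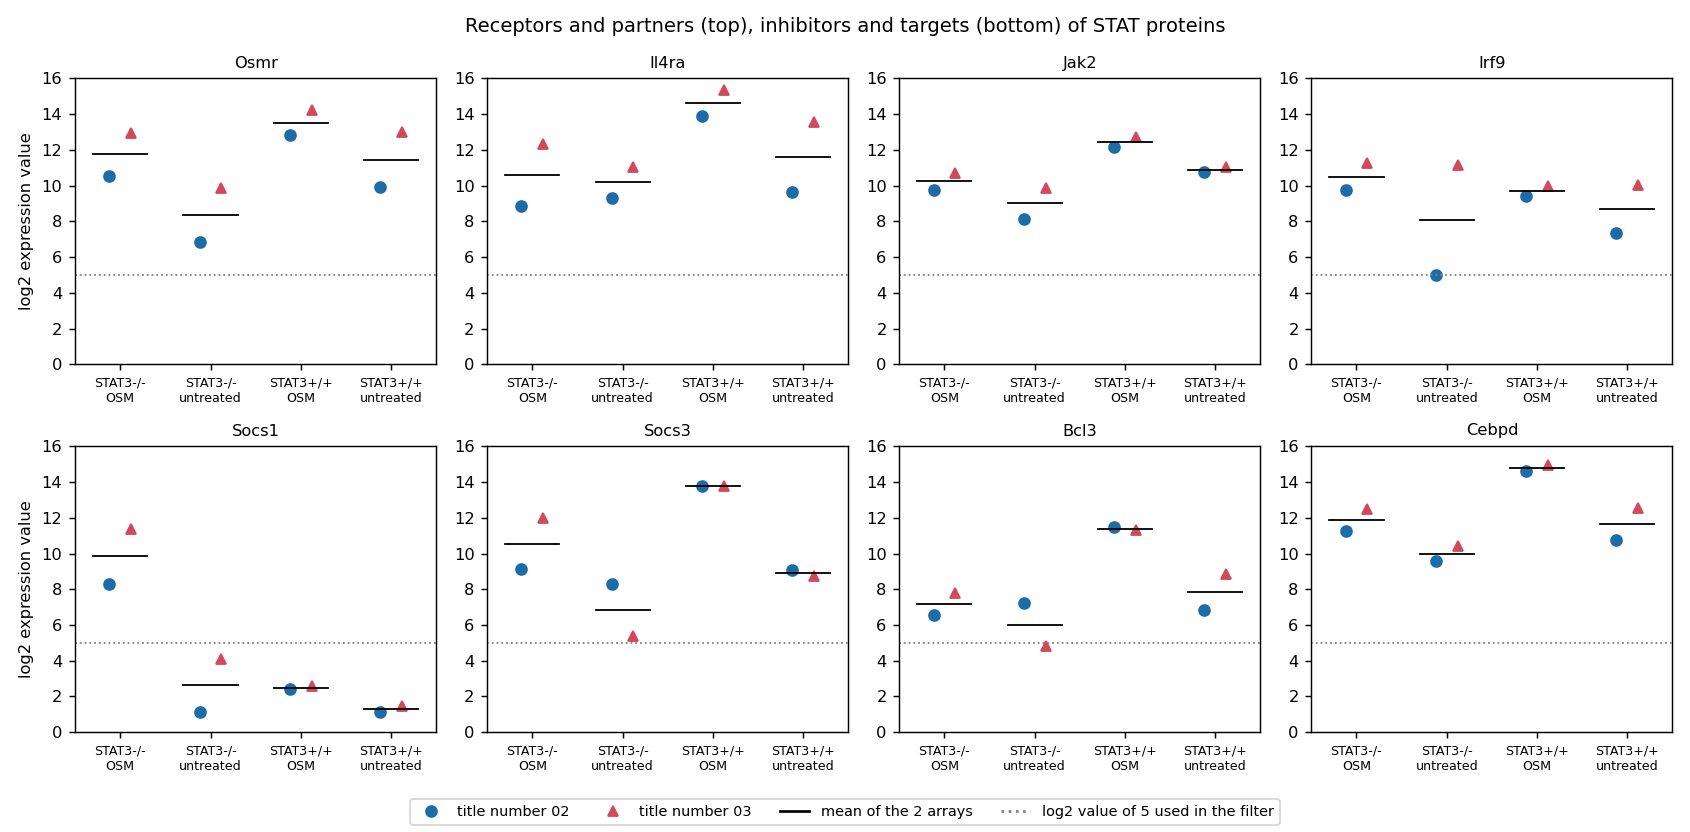
Log2 expression value (y axis) of 8 genes around the STAT proteins in the 4 groups (x axis), with circles for title number 02, triangles for title number 03, a line at the mean of the 2 arrays and a dotted line at the log2 value of 5. Socs1 is above 5 only in the OSM-treated STAT3-/- arrays, while Socs3, Bcl3 and Cebpd are highest in the OSM-treated STAT3+/+ arrays.

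The 19 genes listed as STAT3 targets were all tested, and Osmr and Il4ra are also among the receptors, Socs3 among the inhibitors. None was called in the comparisons of genotypes or of OSM. With OSM in STAT3-/- cells all 19 lay above 0, 14 of them in both numbers, with a median log2 difference of 0.96, beside 51.4% above 0 and a median of 0.01 over all 5195 genes and 33.9% of probe sets higher in both numbers. In STAT3+/+ cells 14 of 19 lay above 0 with OSM, 13 of them in both numbers, and the median was 1.34, beside 42.8% and -0.06 over all genes and 26.4% of probe sets higher in both numbers. At least 1 log2 unit in both numbers was reached by 4 of 19 in STAT3-/- cells, against 2.19% of all probe sets, and by 10 of 19 in STAT3+/+ cells, against 2.01%. This list and those below were chosen with earlier results of these data known, so their counts describe and do not test. Each listed gene was read from its brightest tested probe set, whereas the shares of probe sets run over all tested ones. Bcl3, an atypical inhibitor of NF-kB, read 6.55 and 7.77 in OSM-treated STAT3-/- and 11.48 and 11.30 in OSM-treated STAT3+/+ cells (limma adjusted p = 0.81). It was lower without overlap, as were 13.8% of all tested probe sets. Cebpd, a transcription factor of the acute phase response, read 11.25 and 12.48 in OSM-treated STAT3-/- and 14.61 and 14.96 in OSM-treated STAT3+/+ cells (adjusted p = 0.81). Klf4, a zinc-finger transcription factor, read 11.17 and 12.07 in OSM-treated STAT3-/- and 10.08 and 10.03 in OSM-treated STAT3+/+ cells. Without OSM it read 10.47 and 10.86 in STAT3-/- and 11.23 and 10.58 in STAT3+/+ cells. The interaction of Klf4 was 1.86 and 1.76 within numbers 02 and 03 (adjusted p = 1).

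Stat2 had no probe set, but 11 of 14 genes listed as targets of Stat2 with Irf9 were tested, and none was called in the comparisons of genotypes or of OSM. Between OSM-treated STAT3-/- and STAT3+/+ cells all 11 lay above 0, 9 of them in both numbers, with a median of 2.39, beside 49.3% and -0.01 over all genes and 29.2% of probe sets higher in both numbers. Between the untreated genotypes 10 of 11 lay above 0, 7 in both numbers, with a median of 1.84, beside 42.4%, -0.07 and 20.9%. These genes also differed with the number, with 7 of 11 called higher in number 03 and a median of 3.84, beside 41.1% of probe sets called in either direction and a median of 0.08 over all genes. The part of the number in their genotype difference was not tested. Rsad2, an antiviral enzyme, read 3.56 and 12.31 in OSM-treated STAT3-/- cells and 3.34 and 4.22 in OSM-treated STAT3+/+ cells, so the difference lay in number 03. Irf7, an interferon regulatory factor, showed the same in untreated cells, with 2.94 and 9.63 in STAT3-/- and 2.94 and 3.45 in STAT3+/+ cells. Rsad2 and Irf7 read at most 4.45 and 4.83 on the STAT3+/+ arrays, so both passed the filter through STAT3-/- arrays alone. Both are counted above, so the genotype counts and medians of this list follow in part from the filter. Isg15, a ubiquitin-like protein, differed in both numbers, at 11.25 and 15.25 in untreated STAT3-/- and 9.85 and 12.97 in untreated STAT3+/+ cells.

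Of 9 Stat5 targets 8 were tested, of which Ccnd1, Pim1 and Bcl2l1 are also among the STAT3 targets and Cish and Socs1 among the inhibitors. In STAT3-/- cells their median with OSM was 0.51 and 8 of 8 lay above 0, but only 4 of 8 in both numbers, beside a median of 0.01, 51.4% and 33.9% over all. In STAT3+/+ cells the median was -0.17 and 3 of 8 lay above 0, 2 of them in both numbers, beside -0.06, 42.8% and 26.4% over all. Socs1, counted among these 8, passed the filter through the OSM-treated STAT3-/- arrays alone. Its place above 0 with OSM in STAT3-/- cells was thus set by the filter. Ccnd1, cyclin D1, read 11.25 and 10.75 in OSM-treated STAT3-/- and 9.68 and 7.62 in OSM-treated STAT3+/+ cells (limma adjusted p = 1). Cish, a Stat5 feedback inhibitor, read 5.86 and 6.16 in OSM-treated STAT3-/- cells, 5.94 and 5.98 in untreated STAT3-/- cells, 7.75 and 6.12 in OSM-treated STAT3+/+ cells and 5.50 and 6.13 in untreated STAT3+/+ cells, so that 1 array stood above the others. Of 8 Stat6 targets only Socs1, Il4ra and Bcl6 were tested, and Bcl6, a transcriptional repressor, read 8.26 and 9.07 in untreated STAT3-/- and 8.45 and 10.96 in untreated STAT3+/+ cells. None of either list was called in the comparisons of genotypes or of OSM.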

How the data were processed

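Total RNA was biotin-labelled and hybridised to Affymetrix arrays, per the labels' protocols. The deposited table holds log2 expression values per probe set, made by the authors with GCRMA and affy per the submitters' processing notes. The sources used here give neither versions nor whether all arrays were normalized in one run. GCRMA draws dim probe sets to low, similar values, which can enlarge a difference from a dim group. Of 12488 probe sets 66 controls were set aside, and 6756 with a log2 value of at least 5 on at least 2 arrays entered the test, limma 3.58.1 under R 4.3.3 (intensity trend, 4 group means, 4 residual degrees of freedom, two-sided). Benjamini-Hochberg adjustment ran over all of them, with a call at an adjusted p under 0.05. Errors of differences are limma standard errors.

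Groups and numbers come from the sample titles. The number may stand for a line, a culture or a run. The labels do not say whether arrays of one group stem from different cultures, and p-values then reflect array-to-array spread that can be purely technical. The differences of number 03 minus 02 correlated at 0.589 to 0.911 between groups, so the number was taken to pair the arrays, on the data alone, and was used as a block (3 residual degrees of freedom) in an alternative fit. Other settings were no filter, a filter at 7, robust estimation, no trend, only the groups compared, renewed quantile normalization, values under 5 set to 5 and leaving out each array, and, added later, the latter with the block. The limma script was tested on simulated data.

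The members, gene lists and naming rule were chosen with earlier results of these data known. The rule names every STAT probe set, up to 4 called genes or otherwise up to 2 genes of smallest p per list and comparison, some of which are described, and 3 genes of most similar pattern. In lists, each gene was read from its brightest tested probe set. RefSeq promoter windows matched all 6 members. The alignment of the member proteins was not run.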

Additional observations from a re-analysis of the deposited data

Results flagged for a closer look

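Stat5a on 100423_f_at went in opposite directions between the genotypes in the absence and presence of OSM. STAT3-/- minus STAT3+/+ was -0.22 and -0.63 with OSM and 0.69 and 0.11 without, within numbers 02 and 03. The interaction, which tests this, was -0.82 ± 0.53 (SE; limma adjusted p = 1, unadjusted p = 0.169). The Stat5a probe set 100422_i_at, at background on all arrays, differed with OSM by 0.10 and 0.07 in STAT3-/- cells and by -0.05 and -0.03 in STAT3+/+ cells, a difference that was not tested. No group was large enough to look for single outlying arrays.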

How the results depend on the processing

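The Stat3 difference between the genotypes and with OSM kept its direction on both probe sets under every setting tried. For OSM in STAT3-/- cells on 99100_at this says little, since it ran from 0.13 to 4.49 with 1 array left out. The low end is a difference between values under 5. On 99099_at, leaving out 1 array, with or without the replicate block, gave -2.66 to -2.07 for the untreated genotypes, -3.18 to -2.71 for the OSM-treated genotypes, 0.70 to 1.29 for OSM in STAT3-/- cells and 1.38 to 1.77 for OSM in STAT3+/+ cells. Near 0, directions turned when 1 array was left out. Stat6 then ran from -0.58 to 0.20 for OSM in STAT3+/+ cells, from -0.08 to 0.52 for OSM in STAT3-/- cells and from -0.38 to 0.40 between the OSM-treated genotypes. Stat5a ran from -0.65 to 0.13 for OSM in STAT3-/- cells and from -0.25 to 0.11 between the numbers. The interaction of Stat3 on 99100_at ran from -1.78 to 2.58, and was -0.76 with values under 5 set to 5. Of the 532 STAT values under other settings, 512 kept direction and side of the threshold, 17 turned and 3 passed where the reported one did not. These were Stat3 on 99099_at between the OSM-treated genotypes with the replicate block, and on 99100_at with the block and 1 array left out, between the OSM-treated genotypes and between the untreated genotypes (adjusted p = 0.0498 without OSM-treated STAT3-/- of number 02).

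Counts of called probe sets were 0 in 4 comparisons and 1 between the OSM-treated genotypes. With the replicate block they were 7 between the OSM-treated genotypes, 2 for OSM in STAT3-/- cells (Hk2 and Ereg) and 1 for OSM in STAT3+/+ cells (Hk2), and 0 in the others. These genes are outside the rule and named after their values were seen. Between the OSM-treated genotypes the count was 0 with robust estimation, without the trend, with only the groups compared, after quantile normalization and with values under 5 set to 5, and 0 to 2 with 1 array left out. With values under 5 set to 5 it was 1 for OSM in STAT3-/- cells. Leaving out 1 array gave 0 to 1 for OSM in STAT3-/- cells and 0 to 1 between the untreated genotypes. Between the numbers 2775 were called, 7210 of 12422 without the filter, and 1223 to 2599 with 1 array left out. The causes of these changes were not tested. Members below a log2 value of 5 limit what can be read of Stat4 and Stat5b.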
